A study of Homo sapiens with 6 samples.

Results

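The 30 genes described here encode the enzymes that build cholesterol and fatty acids, together with the proteins that regulate or carry their products. They were taken by name from a gene table of 58302 rows, all 30 were found once, and all 30 passed the filter on low counts, which left 15631 genes to test. By role, 18 are enzymes of the sterol branch (HMGCS1, ACAT2, MVK, PMVK, MVD, IDI1, FDPS, FDFT1, SQLE, LSS, CYP51A1, TM7SF2, MSMO1, NSDHL, HSD17B7, EBP, SC5D and DHCR7), 7 are enzymes of the fatty acid branch (ACLY, ACACA, FASN, ELOVL6, SCD, FADS1 and FADS2), and 5 are regulators or carriers (SREBF1, SREBF2, SCAP, INSIG1 and STARD4).

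The cells were A549, a human lung adenocarcinoma line, grown in RPMI 1640 with 10% fetal bovine serum and used at passages 6 to 8. In the tested condition they were transfected with SNHG5, a long non-coding RNA that hosts small nucleolar RNAs, and in the other with vector. Each condition gave 3 libraries, named below by their labels as overexpression 1, 2 and 3 and control 1, 2 and 3. The labels call them biological replicates and give neither the vector nor the time between transfection and harvest, and no library of untransfected cells was analysed here. The study asked about SNHG5 in migration, invasion and epithelial-mesenchymal transition.

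Cells make cholesterol from acetyl-CoA through the mevalonate pathway, squalene and lanosterol, and make fatty acids by carboxylating acetyl-CoA and joining the products on fatty acid synthase. The transcription factors SREBP1 and SREBP2, encoded by SREBF1 and SREBF2, switch both branches on; SREBP2 acts mainly on sterol genes and SREBP1 also on fatty acid genes. SCAP carries them out of the endoplasmic reticulum when sterols are scarce, and INSIG1 holds SCAP back when sterols are plentiful. In alveolar type 2 cells, the lineage to which A549 is usually likened, fatty acids and cholesterol go into surfactant.

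Library totals ran from 13378079 to 16999604 counts, and 3 counts, the floor for a gene not seen, equalled 0.175 to 0.218 CPM (the library-size scaled count, with TMM factors); this floor covers counting error only. SNHG5 itself stood at 153.3, 126.5 and 62.9 CPM in overexpression 1, 2 and 3, against 61.0, 101.3 and 55.1 CPM in control 1, 2 and 3. In SNHG5 the library labelled overexpression 3 thus lay among the controls, and every direction below is between libraries as labelled. Control 2 stood apart in RNA makeup, with the nuclear RNA MALAT1 at 28.1 CPM against 118.3 to 476.1 CPM elsewhere and 2.57% of its counts from mitochondrial genes against 3.8% to 6.16% elsewhere. The epithelial keratins were abundant but lowest in overexpression 1 and 2, where KRT8 had 1260 and 1310 CPM against 2250 to 2660 CPM in the other libraries. KRT7 had 1580 and 2060 CPM in overexpression 1 and 2 against 2630 to 2730 CPM elsewhere, and KRT18 had 743 and 893 CPM against 949 to 1300 CPM elsewhere. ALDH1A1, an enzyme abundant in A549, was likewise lowest in overexpression 1 and 2, while EPCAM and AKR1C3 were not. The surfactant genes SFTPC and SFTPB and the leukocyte gene PTPRC had 0 counts in all libraries, while ABCA3, the surfactant lipid transporter, held 77.9 to 92.8 CPM. LAMP3, a lamellar body gene that interferon also induces, had 2.18, 1.24 and 3.49 CPM in overexpression 1, 2 and 3, against 27.4, 55.4 and 46.1 CPM in control 1, 2 and 3, and the lysosomal gene CD68 had 38.3, 39.4 and 25.7 CPM in overexpression 1, 2 and 3, against 75.2, 91.6 and 91.6 CPM in control 1, 2 and 3. In LAMP3 and CD68 overexpression 3 thus stood with overexpression 1 and 2, below all controls. In KRT7 and KRT18 it stood among the controls, and why it differed by gene was not tested. Of genes that mark liver and fat, tissues rich in lipid synthesis, ALB had 4 counts over the 6 libraries and ADIPOQ and PLIN1 had 0.

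The promoters of 26 members were matched by symbol in RefSeq's table for GRCh38.p14, and the 250 bases before the annotated start were searched on both strands. The letters TCACNCCAC, a form of the sterol regulatory element that SREBP binds, were found before 1 member, SREBF2, which encodes SREBP2, and before 0.875% of 27305 promoters in the table. The letters CCAAT, which the cofactor NF-Y binds, were found before 12 of 15 sterol enzymes, 2 of 6 fatty acid enzymes and 3 of 5 regulators and carriers, against 33.0% of all promoters. GGGCGG, an Sp1 motif, was found before 24 of the 26 members and 42.3% of all promoters, and the E-box CACGTG before 3 of the 26 and 6.49% of all. Such matches are letters only and show no binding. Only 1 form of the element and 1 window per gene were searched, so a missing match does not show that an element is absent.

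The sequences before the RefSeq start are shown for 5 members described below. In each case the gene as deposited starts further upstream, so part of the window lies within that gene. SREBF2 holds the TCACNCCAC letters, and STARD4 and INSIG1 had the most negative and the most positive fold change. MSMO1 and SCD had the widest spread over libraries in their branches. Each is written 5′ to 3′ on the gene's own strand from GRCh38.p14, with TCACNCCAC and CCAAT, found on either strand, in capitals.
SREBF2 (chr22:41832855-41833104, plus strand): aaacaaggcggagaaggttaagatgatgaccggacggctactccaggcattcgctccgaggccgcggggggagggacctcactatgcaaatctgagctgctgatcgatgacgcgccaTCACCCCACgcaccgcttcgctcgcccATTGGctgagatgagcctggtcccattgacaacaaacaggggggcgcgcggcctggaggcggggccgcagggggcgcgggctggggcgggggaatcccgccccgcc
STARD4 (chr5:111512536-111512785, minus strand): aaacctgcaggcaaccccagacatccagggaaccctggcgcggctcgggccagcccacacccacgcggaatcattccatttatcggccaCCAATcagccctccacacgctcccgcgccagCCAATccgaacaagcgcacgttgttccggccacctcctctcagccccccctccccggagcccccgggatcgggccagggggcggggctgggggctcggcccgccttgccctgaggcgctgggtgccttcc
INSIG1 (chr7:155297628-155297877, plus strand): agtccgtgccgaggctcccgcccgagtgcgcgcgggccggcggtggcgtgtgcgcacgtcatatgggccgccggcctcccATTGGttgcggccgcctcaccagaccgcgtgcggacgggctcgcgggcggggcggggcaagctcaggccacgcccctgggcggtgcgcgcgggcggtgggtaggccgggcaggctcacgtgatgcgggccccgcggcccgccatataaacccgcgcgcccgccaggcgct
MSMO1 (chr4:165327419-165327668, plus strand): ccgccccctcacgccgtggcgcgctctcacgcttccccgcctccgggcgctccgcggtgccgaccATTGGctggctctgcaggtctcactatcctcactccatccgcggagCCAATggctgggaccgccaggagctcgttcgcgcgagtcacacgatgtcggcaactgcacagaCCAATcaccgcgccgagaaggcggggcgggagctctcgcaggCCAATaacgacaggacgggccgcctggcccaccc
SCD (chr10:100346983-100347232, plus strand): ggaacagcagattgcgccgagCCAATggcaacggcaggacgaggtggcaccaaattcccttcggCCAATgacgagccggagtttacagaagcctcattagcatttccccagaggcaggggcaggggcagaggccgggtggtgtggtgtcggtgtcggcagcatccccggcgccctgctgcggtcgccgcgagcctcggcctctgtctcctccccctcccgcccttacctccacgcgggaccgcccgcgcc
MSMO1 has 4 CCAAT matches in this window, STARD4 and SCD have 2 each, and SREBF2 and INSIG1 have 1 each; INSIG1 also has 1 E-box, read once since its letters are the same on both strands.

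No member of either branch passed the test between the groups. With edgeR's quasi-likelihood test and Benjamini-Hochberg adjustment over all 15631 genes, 0 of 30 members were past an adjusted p of 0.05, where 0.128% of all genes were. DESeq2 and limma-voom also called 0, where they called 1.45% and 0.147% of the genes they tested. So did edgeR with the replicate number as a block (0.467% of all genes called), with other size factors (0.128%), with no filter (0.272%) and with a mean CPM of at least 1 (0.137%). Without overexpression 1, 2 or 3 the members called stayed at 0, where 0.00627%, 0% and 1.03% of all genes were called, and without control 1, 2 or 3 likewise, where 0.136%, 0% and 0% were. By edgeR 1 member, STARD4, had an unadjusted p under 0.05, where 6.49% of all genes had. Without overexpression 3 the number was 9 of 30, where 21.2% of all genes had such a p. In that fit 28 of 30 members had a fold change below 0, as had 50.7% of all genes. Without overexpression 1, overexpression 2 or control 3 the number with such a p was 0, where 3.57%, 3.96% and 4.63% of all genes had. Without control 1 or control 2 it was 1, where 6.44% and 5.43% had. The members' log2 fold changes (overexpression over control) ran from -0.93 to 0.36 with standard errors of 0.18 to 0.48. In 22 of 30 the fold change was below 0, as in 49.3% of all genes tested. The median was -0.19 over the 30 members and 0.01 over all genes. In RNA from whole cultures, fewer cells that express a gene and less RNA per cell cannot be told apart.

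**Figure D1:**
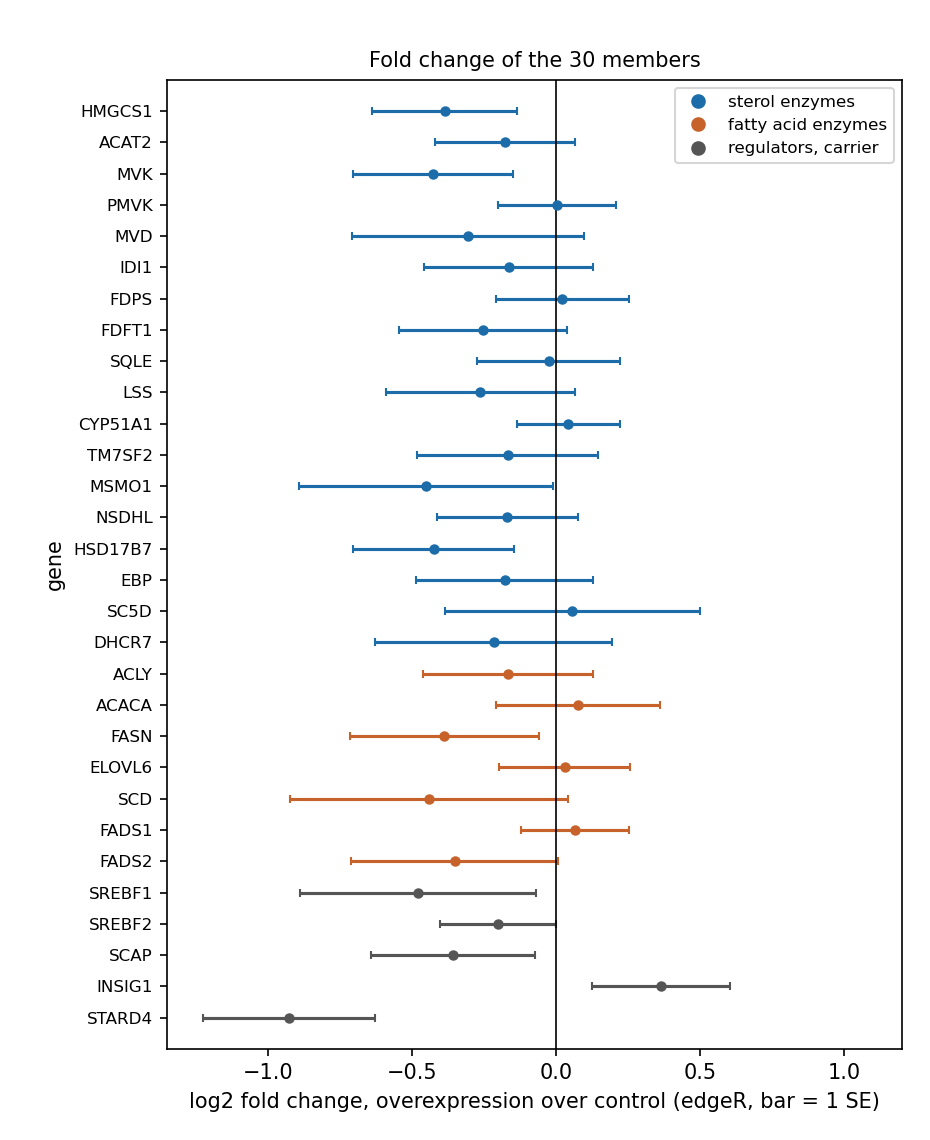
Log2 fold change of each member, overexpression over control, as a point with a bar of 1 standard error from edgeR (3 libraries per group); rows are genes in pathway order. STARD4 lies farthest left at -0.93 and INSIG1 farthest right at 0.36, and no member passed the test.

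The medians of the branches lay close together. The 18 sterol enzymes had a median log2 fold change of -0.18, with 14 below 0, and the 7 fatty acid enzymes had a median of -0.17, with 4 below 0. The 5 regulators and carriers had a median of -0.36, with 4 below 0. The branch medians depended on which libraries were in the fit. Without overexpression 3 they were -0.41 for sterol enzymes and -0.48 for fatty acid enzymes. Without control 2 they were -0.02 and -0.19, and without overexpression 1 they were -0.06 and -0.02. Without overexpression 2 they were -0.11 and -0.05, without control 1 -0.28 and -0.17, and without control 3 -0.20 and 0.01.

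Libraries of the same group stood far apart. Taking each gene's log2 CPM as a difference from its own mean, the median over the 18 sterol enzymes was -0.34, -0.14 and 0.35 in overexpression 1, 2 and 3, against -0.09, 0.47 and 0.04 in control 1, 2 and 3. Overexpression 1 and 2 were thus the lowest libraries, and overexpression 3 and control 2 the highest. The group means of these medians were -0.04 ± 0.35 in overexpression and 0.14 ± 0.29 in control (SD, n = 3 each), a difference smaller than either spread. Over all genes tested the library medians lay between 0.01 and 0.03.

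Gene by gene, that order held for many of the sterol enzymes from which the medians were taken, but not for all. Overexpression 3 was the lowest library for HMGCS1 and HSD17B7. All 18 sterol enzymes were above their own mean in control 2, where 51.9% of all genes were, and 14 of 18 in overexpression 3, where 51.8% of all genes were. In overexpression 1, 1 of the 18 (CYP51A1) was above its mean, where 51.4% of all genes were. In overexpression 2 it was 3 (PMVK, TM7SF2 and SC5D), where 51.5% of all genes were. For 13 of the 18 the highest pair of libraries was overexpression 3 and control 2, which held for 11.3% of all genes, and for 10 of the 18 the lowest pair was overexpression 1 and 2, which held for 21% of all genes. These pairs of libraries were picked out after the values were seen, and the shares describe the 6 libraries only. The keratins KRT8, KRT18 and KRT7 and ALDH1A1 were also lowest in overexpression 1 and 2, and control 2 had low MALAT1 and a low mitochondrial share; their part in the members' pattern was not tested.

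**Figure D2:**
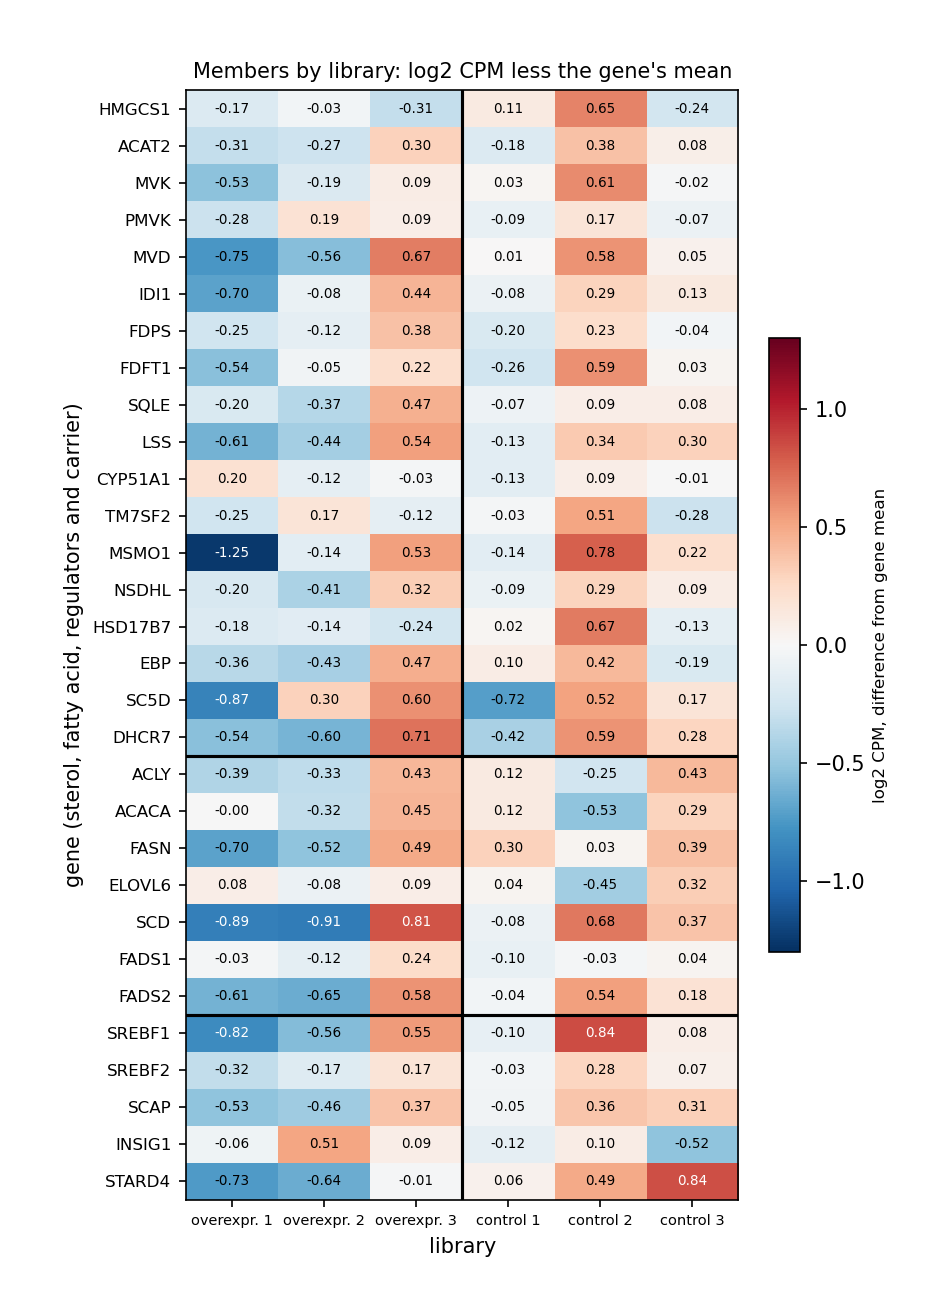
Log2 CPM of each member in each library as a difference from the gene's mean over the 6 libraries; red is above and blue below that mean, rows are genes by role and columns are libraries. Overexpression 1 and 2 are mostly blue, overexpression 3 mostly red, and in control 2 the 18 sterol enzymes are all red while 4 of the 7 fatty acid enzymes are blue.

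The same-numbered libraries showed this as opposite signs. In replicate 1 and in replicate 2, 26 of 30 members were lower in the overexpression library than in the same-numbered control. In replicate 3, 25 of 30 were higher. Of all genes tested, 49.8%, 51.1% and 49.7% were lower in the overexpression library of replicates 1, 2 and 3. The 18 sterol enzymes split as 17, 17 and 3 lower in replicates 1, 2 and 3, and the 7 fatty acid enzymes as 5, 5 and 1. SNHG5 itself was higher in the overexpression library of all 3 pairs, at 153.3 against 61.0 CPM in replicate 1, 126.5 against 101.3 CPM in replicate 2 and 62.9 against 55.1 CPM in replicate 3. Its part in the signs was not tested.

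The fatty acid branch departed most from the sterol branch in control 2, and the sign of the difference varied within each group. Its library medians were -0.39, -0.33 and 0.45 in overexpression 1, 2 and 3, against 0.04, -0.03 and 0.32 in control 1, 2 and 3. The sterol median less the fatty acid median was 0.05, 0.19 and -0.09 in overexpression 1, 2 and 3, against -0.13, 0.50 and -0.28 in control 1, 2 and 3. In control 2 the fatty acid enzymes went both ways: SCD and FADS2 stood 0.68 and 0.54 above their own means there, FASN 0.03 above, and ACLY, ACACA, ELOVL6 and FADS1 below theirs. In control 3 all 7 fatty acid enzymes and 10 of the 18 sterol enzymes were above their own means, where 52.2% of all genes were. In overexpression 3 both branch medians were high, and in overexpression 1 and 2 both were low.

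**Figure D3:**
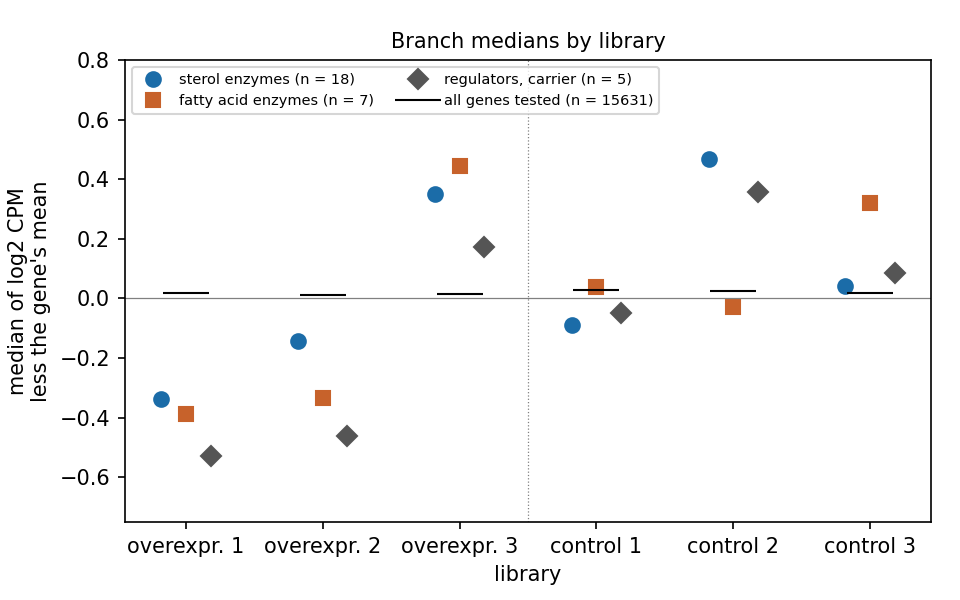
Median over the genes of each role of log2 CPM less the gene's own mean, per library: circles are sterol enzymes, squares fatty acid enzymes, diamonds regulators and carrier, and dashes all genes tested. All 3 roles are lowest in overexpression 1 and 2, and in control 2 the sterol median of 0.47 stands above the fatty acid median of -0.03.

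Among the early enzymes of the mevalonate pathway, HMGCS1, which joins acetyl-CoA and acetoacetyl-CoA to HMG-CoA, had 115.5, 127.4 and 105 CPM in overexpression 1, 2 and 3, against 141, 204 and 110.2 CPM in control 1, 2 and 3. Control 2 was high, and overexpression 2 lay above control 3, so the groups overlapped. The log2 fold change was -0.39 (SE 0.25, edgeR adjusted p 0.749). MVK, mevalonate kinase, had 10.2, 12.96 and 15.8 CPM in overexpression 1, 2 and 3, against 15.1, 22.7 and 14.6 CPM in control 1, 2 and 3. Its groups overlapped as well, with a log2 fold change of -0.43 (SE 0.28, edgeR adjusted p 0.749). MVK shares exonic sequence with MMAB on the opposite strand, and without strand information reads of the 2 genes cannot be told apart there. ACAT2, which makes acetoacetyl-CoA and overlaps the more highly counted TCP1 on the other strand, PMVK, phosphomevalonate kinase, and IDI1, isopentenyl diphosphate isomerase, had log2 fold changes of -0.18, 0.00 and -0.17. MVD, mevalonate diphosphate decarboxylase, had 10.6, 12.1 and 28.4 CPM in overexpression 1, 2 and 3, against 17.9, 26.8 and 18.5 CPM in control 1, 2 and 3, the overexpression libraries standing at both ends of its range.

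Squalene is made from farnesyl diphosphate by FDPS and FDFT1, then oxidised by SQLE and closed into lanosterol by LSS. FDFT1, squalene synthase, had 29.6, 41.7 and 50.4 CPM in overexpression 1, 2 and 3, against 36.1, 65.1 and 44.1 CPM in control 1, 2 and 3. Its log2 fold change was -0.26 (SE 0.29, edgeR adjusted p 0.81), within overlapping groups. LSS had 29.4, 33.2 and 65.5 CPM in overexpression 1, 2 and 3, against 41.1, 57.2 and 55.6 CPM in control 1, 2 and 3. Overexpression 1 and 2 lay below all controls and overexpression 3 above all of them, and the log2 fold change was -0.26 (SE 0.33, edgeR adjusted p 0.821). FDPS and SQLE had log2 fold changes of 0.02 and -0.03, each with overexpression 3 as its highest library.

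Of the enzymes that turn lanosterol into cholesterol, MSMO1, the C4-methyl sterol oxidase, varied most. It had 13.7, 29.7 and 47.4 CPM in overexpression 1, 2 and 3, against 29.8, 56.4 and 38.1 CPM in control 1, 2 and 3. Its highest library held 4.11 times its lowest in CPM. The median ratio was 1.91 for the sterol enzymes and 2.00 for all genes tested. These medians were taken from log2 CPM with a prior count of 2, which lowers the ratios of genes with few counts. The log2 fold change of MSMO1 was -0.45 (SE 0.44, edgeR adjusted p 0.785). HSD17B7, a 3-keto sterol reductase, was the 1 sterol enzyme whose groups did not overlap, with 7.46, 7.64 and 7.16 CPM in overexpression 1, 2 and 3, against 8.596, 13.6 and 7.76 CPM in control 1, 2 and 3. The gap between overexpression 2 and control 3 was small, the log2 fold change was -0.43 (SE 0.28, edgeR adjusted p 0.749), and the pseudogene HSD17B7P2, whose counts were 14.4% of those of HSD17B7, may share its reads. In all, 2 of 30 members were lower in every overexpression library than in every control, where 7.52% of all genes were, and 0 were higher throughout, where 6.04% of all genes were.

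Leaving out control 2 brought the log2 fold changes of HMGCS1, MVK and HSD17B7 to -0.12, -0.19 and -0.14. That of MSMO1 ran from -0.93 without overexpression 3 to -0.10 without overexpression 1, and that of LSS from -0.71 to -0.05 in the same fits.

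DHCR7, the last step to cholesterol, had 29.4, 28.2 and 70.1 CPM in overexpression 1, 2 and 3, against 32.1, 64.5 and 52.0 CPM in control 1, 2 and 3. Its lowest and highest libraries were both overexpression libraries. CYP51A1, the lanosterol demethylase, varied least, from 133.5 to 168 CPM, with overexpression 1 as its highest library; its pseudogenes CYP51A1P1 and CYP51A1P2, counted separately, had counts equal to 2.58% and 11.4% of those of CYP51A1. NSDHL and EBP, a sterol dehydrogenase and isomerase, had log2 fold changes of -0.17 and -0.18, and SC5D, a sterol desaturase, of 0.06. TM7SF2, a sterol reductase, had a log2 fold change of -0.17 on 57 to 94 counts per library, and shares exonic sequence with the more highly counted VPS51 on the same strand, so that its value is uncertain.

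In the fatty acid branch SCD (ENSG00000099194, chr10:100347124-100364834), the desaturase that makes oleate, had 207.6, 204.5 and 674.3 CPM in overexpression 1, 2 and 3, against 363.6, 616 and 497 CPM in control 1, 2 and 3. Overexpression 1 and 2 lay below every control and overexpression 3 above every control. The log2 fold change was -0.44 (SE 0.48, edgeR adjusted p 0.802). FASN (ENSG00000169710, chr17:82078333-82098332), fatty acid synthase, had 172, 194.3 and 392.5 CPM in overexpression 1, 2 and 3, against 342, 284.9 and 366.4 CPM in control 1, 2 and 3. It showed the same arrangement, with a log2 fold change of -0.39 (SE 0.33, edgeR adjusted p 0.757). FADS2, the delta-6 desaturase, had 114.5, 111.6 and 261.8 CPM in overexpression 1, 2 and 3, against 170.6, 253.8 and 199 CPM in control 1, 2 and 3, again with overexpression 3 above and overexpression 1 and 2 below all controls. Its log2 fold change was -0.35 (SE 0.36, edgeR adjusted p 0.793).

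Without 1 library the log2 fold change of FADS2 ran from -0.88, without overexpression 3, to -0.15, without overexpression 2. That of FASN was highest without overexpression 1, at -0.17, and that of SCD without overexpression 2, at -0.16. Without overexpression 3, SCD had a log2 fold change of -1.26 and FASN of -0.86, with edgeR adjusted p of 0.0877 and 0.108. Without both overexpression 3 and control 2, an alternative added after the data were seen, SCD was at -1.07 and FASN at -0.96, with edgeR adjusted p of 0.0442 and 0.0352. In that fit 2 of 30 members were called lower, where 2.46% of all genes were. Overexpression 3 lay among the controls in SNHG5, though not in LAMP3 or CD68, and control 2 was low in MALAT1. They were also the highest pair of libraries for 18 of 30 members, as for 11.3% of all genes. The choice was made with these values known, so the 2 calls are not independent of them, and 2 libraries per group remain.

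The other fatty acid enzymes varied less. ACLY, which supplies cytosolic acetyl-CoA, had 481.5, 499.6 and 849.1 CPM in overexpression 1, 2 and 3, against 681.9, 528.9 and 845.8 CPM in control 1, 2 and 3. ACACA, acetyl-CoA carboxylase, and ELOVL6, an elongase, were lowest in control 2, at 94.1 and 54.0 CPM, and had log2 fold changes of 0.07 and 0.03. FADS1, the delta-5 desaturase, ranged from 321 to 412.7 CPM with a log2 fold change of 0.06. FADS1 and FADS2 overlap in exons on opposite strands, and FADS2 also overlaps FEN1, so reads may be shared between them.

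Scaled to the length of the joined exons in GENCODE release 29, ACLY had the highest mean level of the 30 members, at 117 ± 39.7 CPM per kilobase in overexpression and 131 ± 30.4 in control (SD, n = 3 each). SCD followed at 67.5 ± 50.4 CPM per kilobase in overexpression and 91.8 ± 23.6 in control. The highest sterol enzyme per length was CYP51A1, at 41.6 ± 4.78 in overexpression and 40.4 ± 3.05 in control, and the lowest member was TM7SF2, at 1.21 ± 0.184 in overexpression and 1.36 ± 0.404 in control. Joined exons include rare isoforms, so these levels understate genes with many of them.

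Among the regulators, SREBF1 had 27.3, 32.5 and 70.7 CPM in overexpression 1, 2 and 3, against 44.8, 86.4 and 51.1 CPM in control 1, 2 and 3. It was low in overexpression 1 and 2 and highest in control 2, and its log2 fold change was -0.48 (SE 0.41, edgeR adjusted p 0.76). That value was -1.02 without overexpression 3, -0.23 and -0.32 without overexpression 1 and 2, and -0.14 without control 2. RAI1 overlaps SREBF1 on the opposite strand, so some of these reads are uncertain. SREBF2, whose promoter with the TCACNCCAC letters is shown above, had 74.9, 83.3 and 105.4 CPM in overexpression 1, 2 and 3, against 91.6, 113.6 and 98.3 CPM in control 1, 2 and 3. Its libraries stood in the same order as those of SREBF1 but within 1.52 times, against 3.17 times for SREBF1, and its log2 fold change was -0.20 (SE 0.20, edgeR adjusted p 0.788). SCAP had 31.4, 32.9 and 58.8 CPM in overexpression 1, 2 and 3, against 43.8, 58.1 and 56.1 CPM in control 1, 2 and 3, with a log2 fold change of -0.36 (SE 0.28, edgeR adjusted p 0.753). Without 1 library the fold change of SREBF2 ran from -0.36 to -0.10 and that of SCAP from -0.71 to -0.20, lowest without overexpression 3 and highest without overexpression 1.

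INSIG1 (ENSG00000186480, chr7:155297776-155310235), the brake on SCAP and itself an SREBP target, had the highest of the 8 member fold changes above 0. It had 62.9, 93.5 and 69.8 CPM in overexpression 1, 2 and 3, against 60.3, 70.0 and 45.6 CPM in control 1, 2 and 3. It was higher in the overexpression library of each same-numbered pair, by 0.06, 0.42 and 0.61 log2 in replicates 1, 2 and 3. The share of all genes higher in every pair was not counted, and the pairing is uncertain. The groups overlapped, and overexpression 2 was its highest library. The log2 fold change was 0.36 (SE 0.24, edgeR adjusted p 0.749). It was 0.17 without overexpression 2, 0.21 without control 3 and 0.51 without control 2.

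STARD4 (ENSG00000164211, chr5:111496033-111512590 on GRCh38), a carrier that moves cholesterol between membranes, had the lowest fold change. It had 12.3, 13.1 and 20.4 CPM in overexpression 1, 2 and 3, against 21.4, 28.99 and 36.95 CPM in control 1, 2 and 3. All overexpression libraries lay below all controls, with overexpression 3 close to control 1. The log2 fold change was -0.93 (SE 0.30), 1.90-fold lower, with an edgeR unadjusted p of 0.0147 and adjusted p of 0.556. With the replicate number as a block it was -0.93 with an edgeR adjusted p of 0.194, and over the fits without 1 library the log2 fold change ran from -1.20 to -0.72 with adjusted p from 0.106 to 1.

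**Figure D4:**
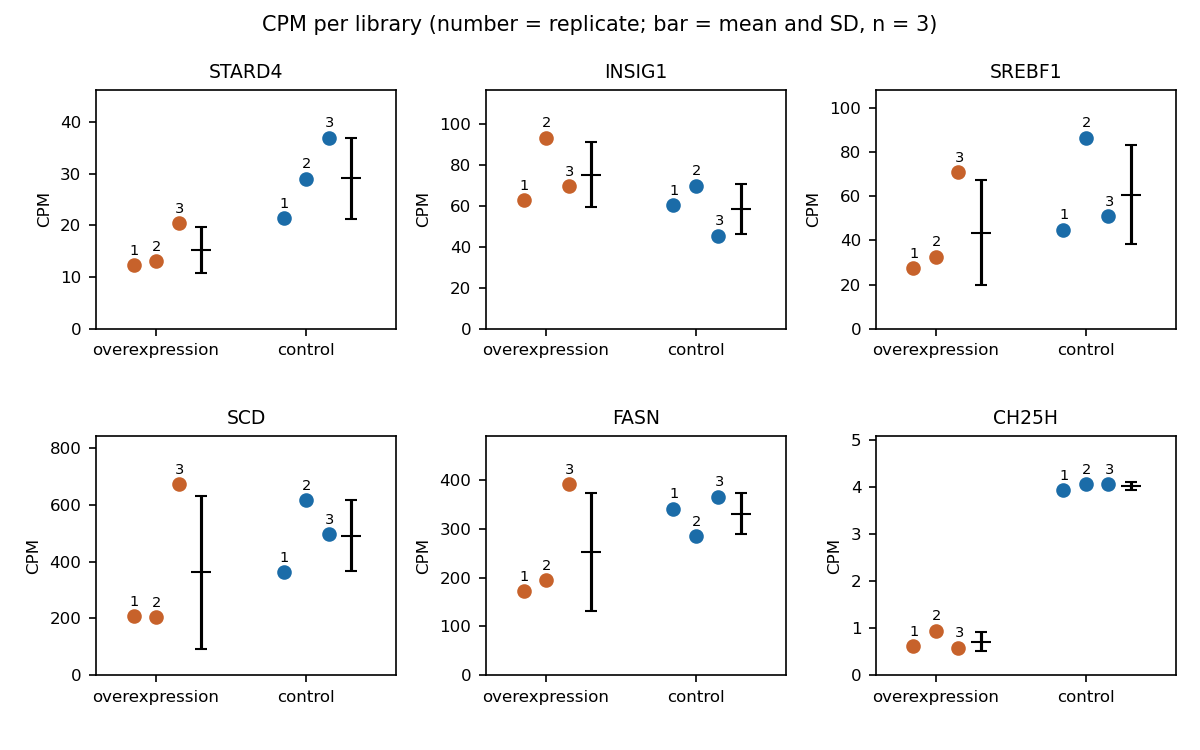
CPM of 5 members and of CH25H in each library; points are libraries with their replicate number, and the bar beside each group is the mean and SD of its 3 libraries. STARD4 and CH25H are lower in all 3 overexpression libraries than in all 3 controls, while in SCD and FASN overexpression 3 lies above every control.

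Genes of the same pathways outside the 30 were taken from 3 lists, and 0 of their 30 tested genes passed in edgeR. Of 10 further sterol pathway genes, 3 had a log2 fold change below 0 and the median was 0.04; INSIG2, the second SCAP anchor, was at 0.31 (SE 0.49) and LBR, a sterol reductase of the nuclear membrane, at -0.06 (SE 0.27). Of 14 further fatty acid genes, 6 were below 0 and the median was 0.01; ACSS2, which makes acetyl-CoA from acetate, was at 0.00 (SE 0.23) and ELOVL5, an elongase of polyunsaturated fatty acids, at -0.19 (SE 0.18). Of 7 genes of oxysterol synthesis, sterol storage and efflux, 6 were tested, all 6 were below 0 and their median was -0.34. Of all genes tested, 49.3% were below 0. Control 2 was the highest library for 5 of the 6, as for 25.8% of all genes tested. MYLIP, a target of the sterol sensor LXR that degrades the LDL receptor, was at -0.25 (SE 0.38), and at 0.10 without control 2. ABCG1, a sterol exporter, had too few counts to be tested, with 6, 7 and 10 in overexpression 1, 2 and 3, against 10, 25 and 9 in control 1, 2 and 3.

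CH25H (ENSG00000138135, chr10:89205629-89207314), a cholesterol hydroxylase and a known interferon-induced gene, was the 1 gene of these lists with an unadjusted p under 0.05. It had 0.607, 0.946 and 0.582 CPM in overexpression 1, 2 and 3, against 3.93, 4.07 and 4.07 CPM in control 1, 2 and 3. These values rest on 10, 13 and 10 counts in overexpression 1, 2 and 3, against 59, 62 and 66 in control 1, 2 and 3, and the groups were well apart, with overexpression 3 as low as overexpression 1. The log2 fold change was -2.50 (SE 0.34), 5.64-fold lower, with an edgeR adjusted p of 0.0556, just short of the threshold, and 0.0523 with the replicate block. DESeq2 gave an adjusted p of 1.42e-05 and edgeR with no filter gave 0.0257, so that the call depends on the tool and the filter. Over the edgeR fits without 1 library the log2 fold change ran from -2.75 to -2.37 and the adjusted p from 0.0399, without overexpression 3, to 0.325.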

How the data were processed

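Per the labels' protocols, total RNA was made into paired-end libraries with Illumina's TruSeq RNA kit, which does not mark the strand. FastQC, HISAT2 and GRCh38 are named in the submitters' processing notes; no source used here gives their versions, the counting program or how it treated strand. Whole-number counts per gene, as the authors deposited them, were analysed; the deposited FPKM values were not used. Promoters come from RefSeq on GRCh38.p14, and exon lengths and strands from GENCODE release 29, where 58 of 61 listed genes lie at the deposited position.

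The test was edgeR's quasi-likelihood fit (edgeR 4.0.16, R 4.3.3; TMM factors on filtered totals, filterByExpr, robust, two-sided), with Benjamini-Hochberg adjustment over 15631 genes at 0.05; it was first tested on simulated counts. The standard error is the log2 fold change over the root of F. CPM uses TMM-scaled totals, and log2 CPM a prior count of 2. Of all rows, 28667 had a count. Replicates of a group differed by a chi-square of 23.9 to 85.7 per degree of freedom, so each library is 1 replicate. It was 23.9 between overexpression 1 and 2 and 25.6 between control 1 and 3. In the pairs that held overexpression 3 or control 2 it was 77.8 to 85.7. The labels call the libraries biological replicates without naming separate cultures, so p-values measure the spread between these libraries, which may be technical.

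The groups share replicate numbers. The titles number the libraries and state no pairing. Deviations from group means correlated at 0.36, 0.16 and 0.29 between same-numbered libraries, each above 0.1. Overexpression 2 and control 1 also correlated at 0.12, so the pairing is uncertain. The numbers were taken as pairs for the block, and the reported values have no block unless stated. Also run were the block, DESeq2 size factors, no filter, a mean CPM of at least 1, DESeq2 1.42.0, limma-voom (limma 3.58.1) and fits without each library. Members, lists and the naming rule were chosen with earlier results of these data known. The rule names all members, gives values by library for the 6 sterol and 3 fatty acid enzymes with the smallest p, for the regulators and for STARD4, and names 7 further pathway genes whatever their values. MVD, DHCR7 and ACLY are given by library in addition, chosen after their values were seen.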

Additional observations from a re-analysis of the deposited data

How the results depend on the processing

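The count of members past the threshold was 0 higher and 0 lower in edgeR, DESeq2 and limma-voom, with the replicate block, with other size factors, under each filter and without each library in turn. Without both overexpression 3 and control 2, an alternative added after seeing the data, 2 were lower; there the fatty acid median was -0.64 and the sterol less fatty acid median 0.37, and the cause was not tested. The sterol median ran from -0.41 to -0.02 without 1 library, the fatty acid median from -0.48 to 0.0058, and their difference, -0.01 with all libraries, from -0.21 to 0.17, with either sign. With the replicate block the medians were -0.23 and -0.19 and their difference -0.03; apart from this the block changed no call of a member. Of 390 results for single members under 13 alternatives, 355 kept their sign and side, 2 (SCD and FASN, given above) gained a call and 33, all of uncalled members, turned in sign. PMVK was at 0.00 and turned to -0.0046 under the block, -0.0075 where no filter was used and -0.0072 in limma-voom. Without 1 library the members that turned ran from -0.10 to 0.13 (PMVK), -0.48 to 0.078 (IDI1), -0.33 to 0.13 (SQLE), -0.054 to 0.10 (CYP51A1), -0.25 to 0.38 (SC5D), -0.78 to 0.017 (DHCR7), -0.19 to 0.15 (FDPS), -0.16 to 0.24 (ACACA), -0.16 to 0.21 (ELOVL6), -0.05 to 0.13 (FADS1), -0.44 to 0.016 (FDFT1), -0.34 to 0.09 (TM7SF2) and -0.48 to 0.0058 (ACLY). Without both libraries FDPS was at -0.07, TM7SF2 at 0.11, ACACA at -0.36, ELOVL6 at -0.18 and FADS1 at -0.052. Other size factors moved the median of all genes to 0.02, from 0.01 with TMM factors. ABCG1, at 6 to 25 counts, was under the filter, and CH25H rests on 10 to 66 counts.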
